A study of Mus musculus with 12 samples.

Results

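A set of 10 imprinted genes that act on growth was followed in single mouse embryos at embryonic day 9.5 (E9.5) that lacked Traf7, against wild-type embryos. The genes were chosen by name: 5 expressed from the paternal copy (Igf2, Dlk1, Peg3, Plagl1 and Mest) and 5 expressed from the maternal copy (H19, Meg3, Cdkn1c, Grb10 and Igf2r). All 10 were found among the 54532 genes of the table, all 10 passed the filter on low counts, and none was left out.

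The KO group held 6 whole embryos homozygous for a Traf7 allele (Traf7 -*/-*) deleted in the whole body by crossing floxed mice with E2a-Cre mice, whose Cre acts in the early embryo. The WT group held 6 wild-type embryos, and all 12 embryos were on the C57BL6/J strain. The floxed line came from targeted stem cells, 1 clone of which also carried a small deletion in 2310061I04Rik, another gene on chromosome 17. KO embryos can therefore lack this gene as well, and the effects of the 2 deletions cannot be told apart. The title of the series speaks of brain, but the label of each sample gives E9.5 embryos. Levels are given in CPM, the count of a gene relative to the total of its library, scaled between libraries with the TMM method. The 12 midgestation markers examined were all detected in every library, and the 9 postnatal brain markers together reached 42.4 to 57.0 CPM in KO embryos and 42.5 to 50.2 CPM in WT embryos.

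Traf7 itself had 17.2 ± 2.22 CPM in KO embryos and 122 ± 11.4 CPM in WT embryos (SD, n = 6 each), with no overlap between the groups. 2310061I04Rik had 2.38 ± 1.99 CPM in KO embryos and 12.1 ± 3.64 CPM in WT embryos, also without overlap. Library totals ran from 16675204 to 21917571 counts. Some embryos stood apart, mainly KO embryos 2, 3 and 5. The 14 Hox genes of the rear body examined, which are used late and towards the tail, together had 0.409 CPM (3 genes with a count) in KO embryo 2 and 5.44 CPM (4 genes) in KO embryo 3, as opposed to 255 to 271 CPM in KO embryos 1, 4 and 5 and 202 to 259 CPM in WT embryos other than WT embryo 5. KO embryo 6 (105 CPM, 7 genes with a count) and WT embryo 5 (134 CPM, 9 genes) were lower than these, and Hoxc10 was at 0 counts in both. An alternative therefore left out KO embryos 2, 3 and 6 and WT embryo 5. Heart muscle genes were also low in KO embryo 3, where Myh6 had 0.102 CPM against 96.7 to 172 CPM in the rest of the KO group and 91.8 to 153 CPM in WT embryos. The 16 targets of hypoxia-inducible factor (HIF) together reached 11295 CPM in KO embryo 5 and 9421 CPM in KO embryo 3, as opposed to 6363 to 7338 CPM in the rest of the KO group and 4796 to 6344 CPM in WT embryos. The 15 markers of yolk sac endoderm together had 543 CPM in KO embryo 6, 403 CPM in KO embryo 5, 85.3 CPM in each of KO embryos 1 and 4, and 22.1 and 21.7 CPM in KO embryos 3 and 2, whereas WT embryo 2 had 353 CPM and the remaining WT embryos had 45.4 to 119 CPM. All 12 that passed the filter had fitted log2 fold changes above 0 (median 0.78), against 51.6% of all genes that passed it. Of these 12, 1 had an unadjusted edgeR p of 0.05 or less, against 17.9% of all genes. The 10 markers of trophoblast and placenta, Hand1 among them, together had 6.81 CPM in KO embryo 3 and 15.3 CPM in KO embryo 2, as opposed to 46.1 to 77.1 CPM in the rest of the KO group and 31.6 to 103 CPM in WT embryos. Hand1 and Cdx2 made up most of that sum, and the other markers did not all follow it. Plac1 was also lowest in KO embryo 3 (1.07 CPM). Ascl2 had 1.02 CPM there, against at most 0.431 CPM in WT embryos. Prl3d1 had 0.305 CPM there and 0 CPM in every WT embryo.

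An imprinted gene is read mainly or only from the copy inherited from a given parent, because methylation set in the egg or sperm differs between the copies. Many imprinted genes act on fetal growth: as a rule, the paternally expressed ones promote it and the maternally expressed ones restrain it. The genes lie in clusters, and the libraries here count RNA from both copies together, so which copy was read was not measured. In whole embryos, fewer cells of a type and less RNA per cell cannot be told apart.

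Methylation at imprinted promoters is kept through early development by zinc-finger proteins such as ZFP57, which binds the hexamer TGCCGC when its CpG is methylated and brings in TRIM28. RefSeq promoters (build GRCm38.p6) were at hand for 8 of the 10 genes, 15 promoters in all. The hexamer, on either strand, was in 6 of these 15 promoters, from 5 genes (Mest, Igf2, Plagl1, Grb10 and Meg3), and in 11.6% of all 32851 promoters of the same length of 300 bases. Of the 6, 2 are Mest windows that overlap almost fully and hold the same 2 matches, so 1 sequence enters that count more than once. The promoters of Plagl1 (chr10:13090582-13090881, plus strand) and of a downstream Mest start (chr6:30737800-30738099, plus strand) are shown because both belong to paternally expressed growth genes and hold the hexamer. Capitals mark the hexamer, here as GCGGCA on the strand shown. A match is only a match of letters, and no methylation or binding was measured.
Plagl1: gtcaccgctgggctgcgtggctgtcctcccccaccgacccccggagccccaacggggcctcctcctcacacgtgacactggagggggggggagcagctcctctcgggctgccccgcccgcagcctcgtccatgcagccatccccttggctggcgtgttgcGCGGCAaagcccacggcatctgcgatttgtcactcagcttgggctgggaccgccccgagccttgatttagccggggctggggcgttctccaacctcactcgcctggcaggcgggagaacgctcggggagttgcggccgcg
Mest: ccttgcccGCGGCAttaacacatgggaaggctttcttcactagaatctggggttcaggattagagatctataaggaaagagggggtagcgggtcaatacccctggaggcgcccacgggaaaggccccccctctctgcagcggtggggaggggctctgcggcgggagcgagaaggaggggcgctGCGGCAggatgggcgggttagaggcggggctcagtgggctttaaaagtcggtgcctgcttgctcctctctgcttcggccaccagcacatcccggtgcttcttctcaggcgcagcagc
The Plagl1 window held 26 CpG dinucleotides and the Mest window 17, against a median of 7 over all promoters. The hexamer itself holds a CpG, and its share over all promoters was not matched for CpG number.

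Per length, the 10 genes ranked alike in both groups, apart from neighbours whose ranges overlapped. In FPKM, the authors' count scaled by gene length and library total, H19 was highest with 833 ± 217 in KO embryos and 832 ± 70.7 in WT embryos (SD, n = 6 each). Mest followed with 418 ± 32.5 FPKM in KO embryos and 421 ± 19.1 FPKM in WT embryos, then Grb10 with 184 ± 17.9 FPKM in KO embryos and 172 ± 4.23 FPKM in WT embryos, and Cdkn1c with 88.3 ± 13.0 FPKM in KO embryos and 102 ± 6.30 FPKM in WT embryos. The ranges of these 4 genes did not overlap with that of the next gene in either group. Peg3 (55.0 ± 11.1 FPKM in KO and 59.5 ± 4.17 FPKM in WT embryos) and Dlk1 (53.7 ± 7.32 FPKM in KO and 60.5 ± 9.01 FPKM in WT embryos) overlapped with each other. Igf2r, Igf2 and Plagl1 formed a lower set of overlapping neighbours, between 10.5 and 36.9 FPKM in KO embryos and between 14.4 and 27.5 FPKM in WT embryos. Meg3 was the lowest, with 1.37 ± 0.188 FPKM in KO embryos and 1.36 ± 0.118 FPKM in WT embryos, below every value of the other 9 genes. Together the 10 genes took 0.715 ± 0.0857% of all counts in KO embryos and 0.706 ± 0.0223% in WT embryos.

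Whether loss of Traf7 went with altered levels of these genes was asked with edgeR's quasi-likelihood test over all 14804 genes that passed the filter, called at an adjusted p of 0.05 or less. None of the 10 genes was called, where 0.0203% of all genes were (3 genes, Traf7 among them). At an unadjusted p of 0.05 or less, 3 of the 10 passed (Igf2, Plagl1 and Cdkn1c, all lower in KO embryos), against 17.9% of all genes. DESeq2 called none of the 10, against 2.21% of the genes for which it gave an adjusted p, and limma's voom called none. For all 10 genes the KO and WT values overlapped, whereas 2.83% of all genes had values that did not. The 5 paternally expressed genes all had fitted log2 fold changes of KO over WT below 0, with a median of -0.17, and 4 of the 5 maternally expressed genes had values above 0, with a median of 0.02. Over all genes the median was 0.01, and 51.6% had values above 0. Mest, H19 and Meg3 lay so near 0 that their sign turned under other settings, so these counts of direction rest on very small values. Without KO embryo 5 the medians were -0.23 for the paternally and -0.00 for the maternally expressed genes, and 1 of 5 was above 0 in each set.

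**Figure D1:**
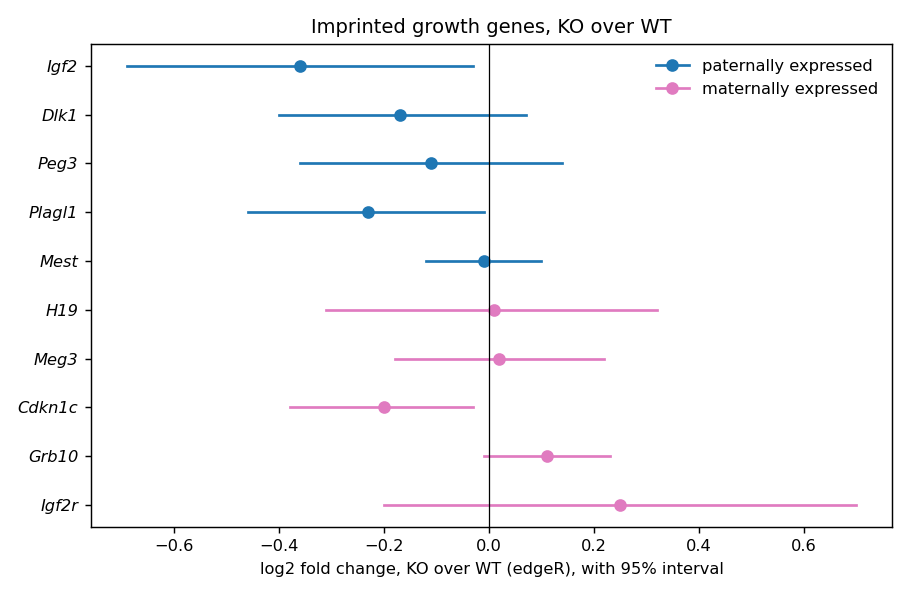
Fitted log2 fold change of KO over WT (dots) with its 95% interval (lines) for the 10 imprinted genes, paternally expressed genes in blue and maternally expressed genes in pink. The intervals of Igf2, Plagl1 and Cdkn1c lie below 0 before adjustment for all genes tested, and that of Igf2r is the widest, from -0.20 to 0.70.

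Igf2 codes for the main growth factor of the fetus, a ligand of the IGF1 receptor and the insulin receptor. It had 63.6, 107 and 137 CPM in KO embryos (lowest, median and highest), against 113, 137 and 158 CPM in WT embryos. KO embryos 2, 3 and 5 (92.3, 63.6 and 99.6 CPM) were below every WT embryo, and the other 3 were inside the WT range. The log2 fold change was -0.36 (SE 0.153, 95% interval -0.69 to -0.03, edgeR adjusted p = 0.25). That interval spans 0.62 to 0.981 of the WT level. Without KO embryos 2, 3 and 5 the log2 fold change was -0.11 (edgeR adjusted p = 0.768). Those embryos were the lowest of the KO group for Igf2, so leaving them out had to shrink the difference. No single marker list set those 3 embryos apart. Rear-body Hox, yolk sac and trophoblast sums (the last mostly Hand1 and Cdx2) were lowest in KO embryos 2 and 3 and not in KO embryo 5. HIF targets were highest in KO embryos 3 and 5 and not in KO embryo 2, which had the lowest sum of the KO group. The part of these lists in the difference was not tested.

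The count of Igf2 has a limit of its own. Igf2 lies at chr7:142650766-142666816 on the minus strand (GRCm38). Of its 5723 exon bases, 3596 are shared on the same strand with Gm49394, an annotated gene that runs through the locus, and 546 of its 678 coding bases are among them. Gm49394 had 0 to 3 counts in each library. How the authors' counter treated reads on shared bases is not given in the sources used here. The count of Igf2 can depend on it, and so can its CPM, its level per length, its fold change and its ratios to other genes. The antisense gene Igf2os, which shares 98 exon bases with Igf2, is counted from 233 to 434 reads per library.

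Plagl1, a zinc-finger transcription factor, and Dlk1, a membrane protein with EGF-like repeats that can be shed from cells, had lower means in KO embryos. Plagl1 had 83.5, 130.4 and 145 CPM in KO embryos (lowest, median and highest), against 136, 146 and 157 CPM in WT embryos. KO embryos 2, 3 and 6 were below every WT embryo, with KO embryo 3 lowest. The log2 fold change of Plagl1 was -0.23 (SE 0.106, 95% interval -0.46 to -0.01, edgeR adjusted p = 0.272), and without KO embryo 3 it was -0.14. Dlk1 had 258, 307 and 377 CPM in KO embryos, against 251, 350.1 and 403 CPM in WT embryos, a full overlap. Its log2 fold change was -0.17 (SE 0.110, edgeR adjusted p = 0.433).

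Peg3, a large zinc-finger protein, showed a split within the KO group. It was at 556 CPM in KO embryo 2, 565 CPM in KO embryo 3, 779 to 803 CPM in KO embryos 1, 4 and 6, and 942 CPM in KO embryo 5, whereas WT embryos had 722 to 893 CPM. The low pair and the high embryo lay on opposite sides of the WT range, and the log2 fold change was -0.11 (SE 0.115, edgeR adjusted p = 0.639). It was 0.05 without KO embryos 2, 3 and 6 and WT embryo 5. Mest, a protein of the endoplasmic reticulum with a hydrolase fold, was even across embryos apart from KO embryo 5. It had 1674 to 1770.5 CPM in the KO embryos other than KO embryo 5, which had 1424 CPM, against 1544 to 1745 CPM in WT embryos. Mest had a log2 fold change of -0.01 with a 95% interval from -0.12 to 0.10 (edgeR adjusted p = 0.961). Of the 3945 exon bases of Mest, 912 are shared with Copg2 on the opposite strand, and the strand setting of the counts is not given.

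**Figure D2:**
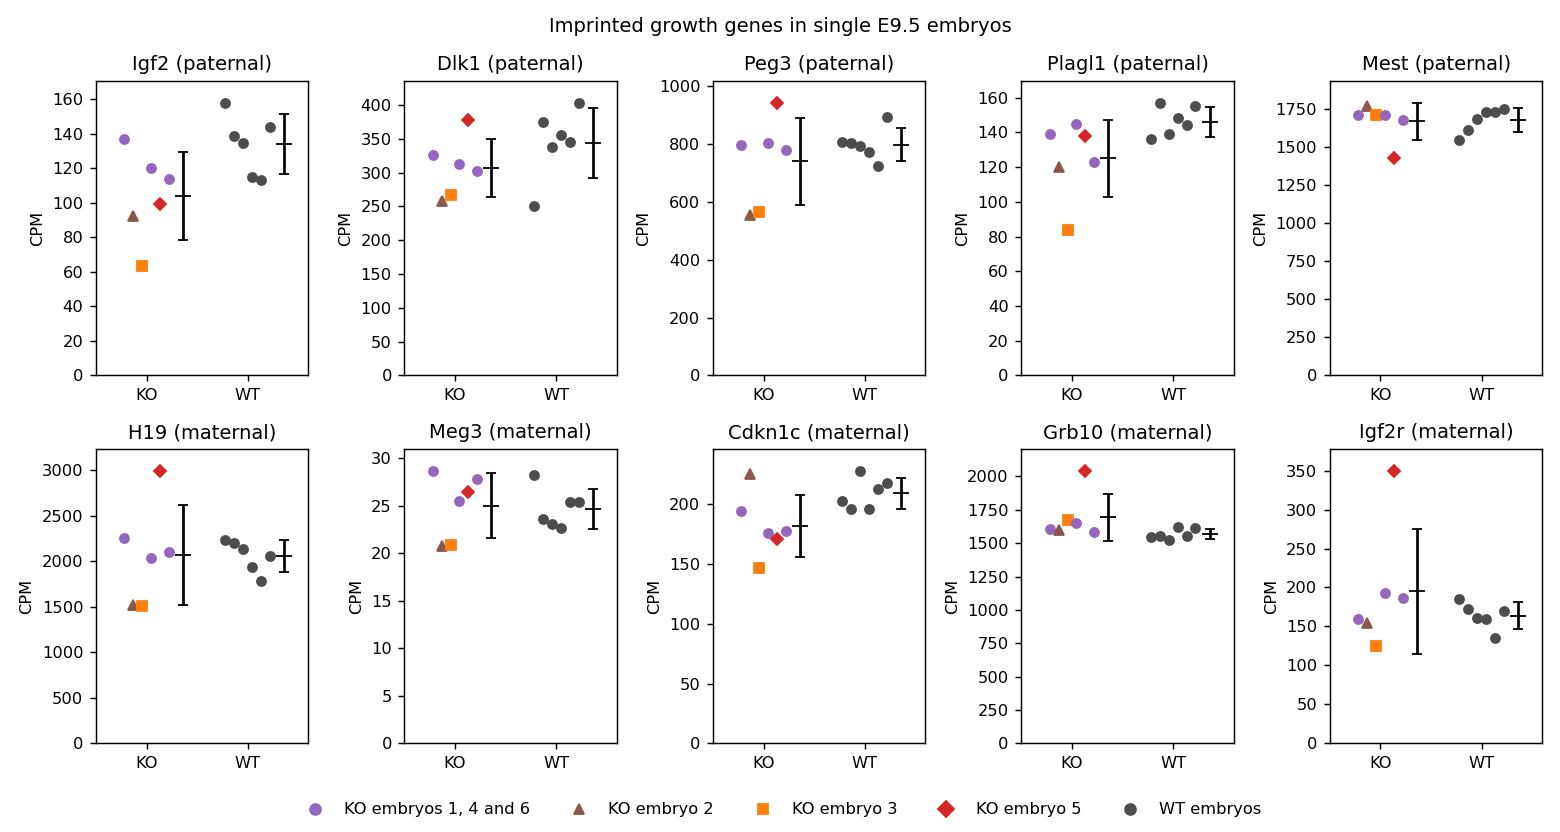
CPM of each imprinted gene in each embryo (vertical axes from 0), KO left and WT right, with the mean and SD of each group of 6 as a black bar. KO embryo 5 (red) is highest of all 12 embryos for Peg3, H19, Grb10 and Igf2r and lowest for Mest, and KO embryo 3 (orange) is lowest for Igf2 and Plagl1.

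Among the maternally expressed genes, Cdkn1c codes for p57, an inhibitor of cyclin-dependent kinases that slows the cell cycle. It had 147, 177 and 225 CPM in KO embryos (lowest, median and highest), against 196, 208 and 228 CPM in WT embryos. Of the 6 KO embryos, 5 were below every WT embryo, and KO embryo 2 was inside the WT range. The log2 fold change was -0.20 (SE 0.0821, 95% interval -0.38 to -0.03, edgeR adjusted p = 0.233). Over the 20 alternatives it stayed between -0.27 and -0.15, with edgeR, DESeq2 or voom adjusted p-values from 0.174 to 0.378.

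Igf2r and Grb10 both damp IGF signalling. Igf2r is the receptor that takes up IGF2 for breakdown, and Grb10 is an adaptor that inhibits the insulin and IGF1 receptors. Grb10 is maternally expressed in most mouse tissues and paternally expressed in neurons, and its count here holds both. Igf2r had 125 to 193 CPM in 5 KO embryos and 349.8 CPM in KO embryo 5, whereas WT embryos had 135 to 185 CPM. For Igf2r the log2 fold change was 0.25 (SE 0.208, 95% interval -0.20 to 0.70, edgeR adjusted p = 0.54), and without KO embryo 5 it was -0.00. Grb10 had 1587 to 1677 CPM in 5 KO embryos and 2043 CPM in KO embryo 5, whereas WT embryos had 1524 to 1622 CPM. Its log2 fold change was 0.11 (SE 0.0566, edgeR adjusted p = 0.316) with all embryos and 0.05 without KO embryo 5. For both genes, 1 embryo gave most of the difference between the groups. That embryo also had the highest summed HIF targets and, after KO embryo 6, the highest summed yolk sac markers, and the part of either in the result was not tested.

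H19 and Meg3 are long non-coding RNAs made from the maternal copy. H19 was at 1513 CPM in KO embryo 3, 1526 CPM in KO embryo 2, 2041 to 2257 CPM in KO embryos 1, 4 and 6, and 2997 CPM in KO embryo 5, whereas WT embryos had 1787 to 2233 CPM. The same low pair and high embryo as for Peg3 lay outside the WT range. Yolk sac markers were also lowest in that pair and high in KO embryo 5, but they were higher still in KO embryo 6 and high in WT embryo 2, and their part in the values of H19 and Peg3 was not tested. H19 had a log2 fold change of 0.01 (SE 0.145, 95% interval -0.31 to 0.32, edgeR adjusted p = 0.982), an interval that spans 0.809 to 1.25 of the WT level. Meg3 had 20.8 to 28.7 CPM in KO embryos, against 22.7 to 28.3 CPM in WT embryos. KO embryos 2 and 3 were again the lowest of the 12, and the log2 fold change was 0.02 (SE 0.0933, edgeR adjusted p = 0.943).

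The 10 genes also differed between embryos of the KO group. KO embryo 3 was the lowest of the 12 embryos for 5 of the 10 genes and below every WT embryo for 7, and KO embryo 2 was below every WT embryo for 5. KO embryo 5 was the highest of the 12 for 4 genes and the lowest for 1. The same shares over all genes were not computed, so these counts are not a trait particular to the 10 genes. Over all genes, voom gave KO embryos 5 and 3 the lowest quality weights (0.0957 and 0.401), against 0.741 to 2.2 in the rest. On the log2 scale against the WT mean, the median of the 5 paternally expressed genes reached -0.50 in KO embryo 3 and -0.40 in KO embryo 2, against -0.17 to -0.00 in the rest of the KO group and -0.11 to 0.12 in WT embryos. The median of the 5 maternally expressed genes reached -0.38 in KO embryo 3 and 0.38 in KO embryo 5, against -0.07 to 0.05 in the rest of the KO group and -0.09 to 0.12 in WT embryos. The SD of log2 CPM was larger among KO embryos than among WT embryos for 9 of the 10 genes, Dlk1 being the exception, where 76.7% of all genes had the larger SD among KO embryos. Without KO embryos 3 and 5 this held for 7 of the 10, against 51.4% of all genes.

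**Figure D3:**
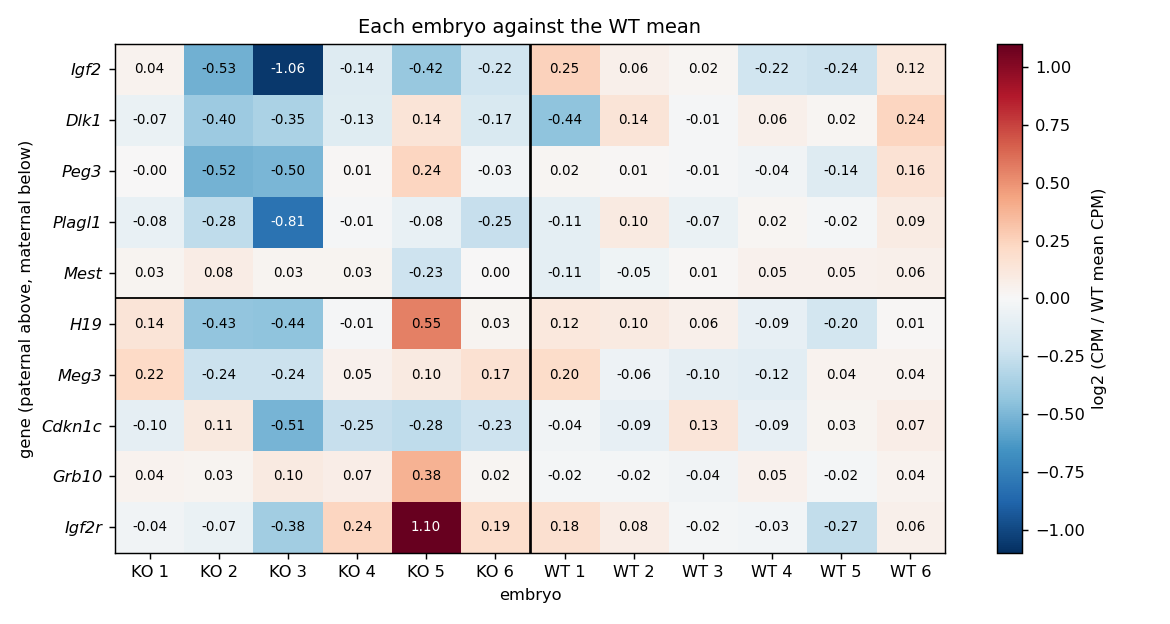
Log2 ratio of each embryo's CPM to the mean of the 6 WT embryos, paternally expressed genes above the line and maternally expressed genes below it, KO embryos left and WT embryos right. KO embryo 3 is low for Igf2 (-1.06) and Plagl1 (-0.81), KO embryo 2 is low for Igf2 (-0.53) and Peg3 (-0.52), and KO embryo 5 is high for Igf2r (1.10) and H19 (0.55).

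Igf2 and H19 lie next to each other on chromosome 7 and share enhancers while being read from opposite parental copies, and Dlk1 and Meg3 form such a pair on chromosome 12, so their levels were also set against each other within each embryo. The log2 ratio of H19 to Igf2 CPM was 4.31 ± 0.356 in KO embryos and 3.95 ± 0.0998 in WT embryos (SD, n = 6 each), a difference of 0.36. KO embryo 3 had a ratio of 4.57 and KO embryo 5 of 4.91, against 4.04 to 4.20 in the rest of the KO group and 3.82 to 4.08 in WT embryos. The 4 remaining KO embryos lay inside the WT range or just above it, and the ranges of the groups overlapped. Without KO embryo 5 the difference was 0.24. The limit of the Igf2 count given above holds for this ratio and for that of Igf2 to Igf2r.

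The ratio of Igf2 to Igf2r, the growth factor against its clearing receptor, differed by -0.56 on the log2 scale. It was -0.86 ± 0.531 in KO embryos and -0.30 ± 0.0955 in WT embryos (SD, n = 6 each). In 5 KO embryos it ran from -1.81 to -0.68, below the lowest WT value of -0.48, and KO embryo 1 had -0.21, above the highest WT value of -0.23. Without KO embryos 2, 3 and 5 the difference was -0.24. Those embryos had the lowest ratios of the KO group, so a smaller difference follows from leaving them out. The log2 ratio of Meg3 to Dlk1 was -3.62 ± 0.136 in KO embryos and -3.79 ± 0.327 in WT embryos, and WT embryo 1, at -3.15, was above all others.

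Across the 12 embryos, log2 CPM of H19 and Igf2 had a Pearson r of 0.524 (permutation p = 0.0889, 0.178 adjusted over the 2 pairs) and a Spearman rho of 0.552 (permutation p = 0.0661, adjusted 0.132). The value depended on single embryos: without KO embryo 5, r was 0.896 (permutation p = 0.00012, adjusted 0.00024), and without KO embryo 3 it was 0.239. The adjustment covers the 2 pairs only and not the choice of embryos left out, so these p-values do not replace that over all 12. The r turned to -0.467 over the 8 embryos left without KO embryos 2, 3 and 6 and WT embryo 5. As differences from the group means, r was 0.601 (permutation p = 0.0429, adjusted 0.0859). Within WT embryos r was 0.887 and within KO embryos 0.561, each over 6 embryos. Without the pair of embryos farthest from the median, KO embryo 3 and WT embryo 1, r was 0.201 (permutation p = 0.593), while without WT embryo 1 alone it was 0.507. Without KO embryos 2, 3 and 5, r was 0.736 (permutation p = 0.0204, adjusted 0.0409). The value over all 12 thus moved with KO embryos 3 and 5 in opposite directions, and a positive r was also found without both. Meg3 and Dlk1 had r = 0.153 (permutation p = 0.63, adjusted 0.63) and a rho of 0.00, and within the groups r was 0.771 in KO and -0.647 in WT embryos.

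**Figure D4:**
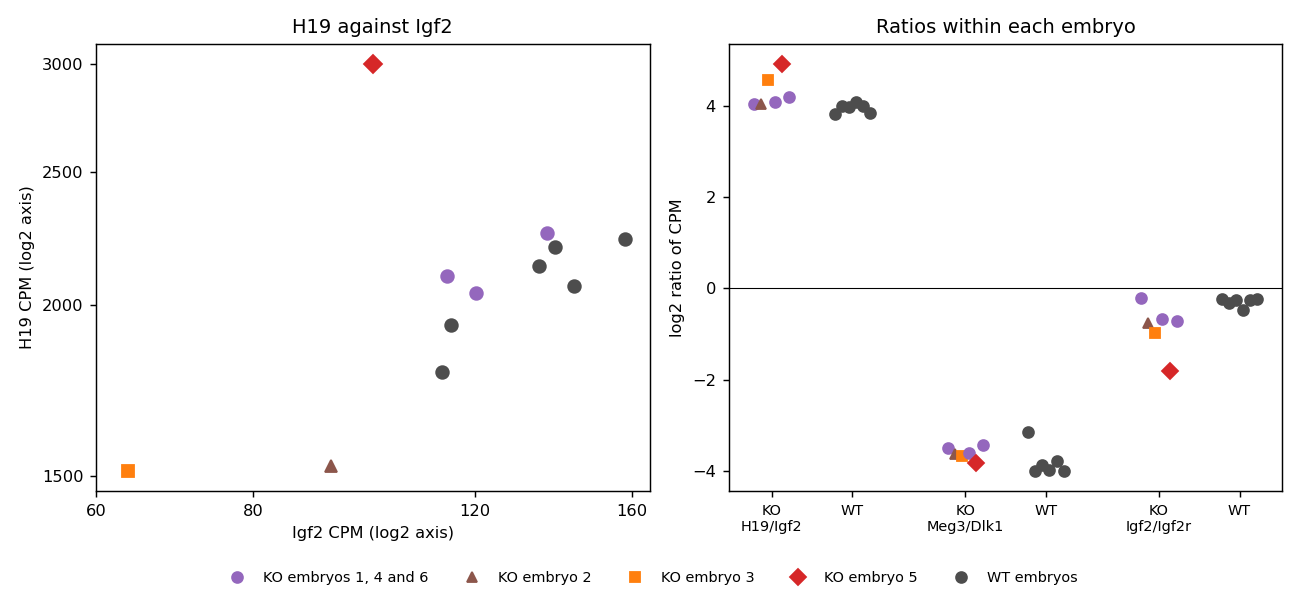
Left, H19 against Igf2 in CPM for each embryo (both axes on a log2 scale), with KO embryo 5 far above the others at 2997 CPM of H19. Right, log2 ratios of CPM within each embryo for H19/Igf2, Meg3/Dlk1 and Igf2/Igf2r, KO left of WT in each pair, where all KO embryos but 1 lie below the WT embryos for Igf2/Igf2r.

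Between other genes of the set, the correlations of log2 CPM over the 12 embryos are descriptions, since all genes are read in the same 12 libraries and the same embryos stand apart. H19 and Peg3 followed each other (r = 0.90, and 0.91 without KO embryo 5), as did Igf2 and Plagl1 (r = 0.83, and 0.86 without it). Grb10 and Igf2r had r = 0.77 with all embryos and -0.20 without KO embryo 5. By the same measure over the 12 embryos, the tested genes most like Igf2 were Dok4 (r = 0.953), Hand1 (0.940) and Cul4b (0.938). Hand1, a transcription factor of lateral mesoderm, heart and trophoblast, was at 4.02 CPM in KO embryo 3 and at 12.5 CPM in KO embryo 2, as opposed to 28.6 to 40.4 CPM in the rest of the KO group and 27.0 to 57.0 CPM in WT embryos. Most like H19 were Itgb1 (r = 0.982), Ret (0.962) and Cdh3 (0.956), and most like Peg3 were Fas (0.952), Rnpc3 (0.941) and Hoxa9 (0.933), the last a rear-body Hox gene. Most like Grb10 were Igf1r (r = 0.975), Hmox1 (0.970) and Rnf34 (0.969), with 0.822, 0.843 and 0.750 without KO embryo 5. Most like Igf2r were Ermp1 (r = 0.966), Trim6 (0.961) and Lamc1 (0.953). For Mest they were Dync1li2 (r = 0.975), Prdm12 (0.966) and Fam168b (0.964), for Plagl1 Fam198b (0.959), 5033428I22Rik (0.939) and Was (0.928), and for Dlk1 Serpine2 (0.930), Ppp2r2b (0.926) and the imprinted gene Asb4 (0.914). For Cdkn1c they were Adgrg6 (r = 0.936), Nat8f4 (0.915) and Adcy4 (0.900), and for Meg3 Vpreb3 (0.881), Adpgk (0.877) and Thsd4 (0.863).

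Other genes listed as imprinted were read in the same fit, and which copy of them was read in these embryos was not measured. Of 28 more genes listed as paternally expressed, 27 were in the table and 25 passed the filter. edgeR and voom called none and DESeq2 called 2 (Ndn and Igf2os), where it called 2.21% of all genes. An unadjusted p of 0.05 or less was reached by 6 (4 higher and 2 lower), 24.0% of those tested against 17.9% of all genes, and the median log2 fold change was -0.02. Ndn, a MAGE-family protein from the mouse region that matches the human Prader-Willi region, had 134, 157 and 168 CPM in KO embryos (lowest, median and highest), against 171, 184 and 191 CPM in WT embryos. Its ranges did not overlap, and its log2 fold change was -0.25 (SE 0.0588, edgeR adjusted p = 0.159, DESeq2 adjusted p = 0.018). Igf2os, the antisense partner of Igf2, had 11.8, 16.9 and 22.3 CPM in KO embryos, against 22.8, 24.6 and 25.6 CPM in WT embryos, again without overlap. Its log2 fold change was -0.54 (SE 0.144, edgeR adjusted p = 0.165, DESeq2 adjusted p = 0.0232). KO embryos 2, 3 and 5 were the lowest for Igf2os (12.7, 11.8 and 14.0 CPM), as they were for Igf2. Sfmbt2, a Polycomb-group protein, had 3.30 to 6.41 CPM in 5 KO embryos and 13.2 CPM in KO embryo 5, whereas WT embryos had 2.21 to 3.84 CPM. Zdbf2 had 75.6 ± 8.61 CPM in KO embryos and 66.3 ± 3.87 CPM in WT embryos (edgeR adjusted p = 0.211).

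Of 27 more genes listed as maternally expressed, 23 passed the filter and none was called by edgeR, DESeq2 or voom. Whether each of them is imprinted in whole embryos of this age was not measured. An unadjusted p of 0.05 or less was reached by 3 of them (1 higher and 2 lower), 13.0% against 17.9% of all genes, and the median log2 fold change was -0.03. Copg2, a coat protein gene that overlaps Mest, had 88.7, 95.2 and 128 CPM in KO embryos (lowest, median and highest), against 84.2, 86.8 and 90.5 CPM in WT embryos. Pon2, a lactonase, had 17.8 ± 3.54 CPM in KO embryos and 22.4 ± 1.89 CPM in WT embryos, and Asb4 had 83.0 ± 13.4 CPM in KO embryos and 96.9 ± 9.83 CPM in WT embryos. Gatm, an enzyme of creatine synthesis, had 11.1 ± 2.68 CPM in KO embryos and 9.08 ± 0.766 CPM in WT embryos. The edgeR adjusted p-values of these 4 genes ran from 0.207 to 0.296.

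The IGF pathway, through which Igf2, Igf2r and Grb10 act, was read from a list of 18 ligands, receptors, binding proteins, proteases, adaptors and Igf2 mRNA-binding proteins, of which 16 passed the filter. edgeR called none of them. By unadjusted p (0.05 or less), 8 were higher and 1 lower, 56.2% of those tested against 17.9% of all genes. Fitted values were above 0 for 14 of the 16, against 51.6% of all genes, with a median of 0.23. Without KO embryo 5, 8 of 16 passed, where 16.9% of all genes did, and the median was 0.14. Without KO embryos 2, 3 and 5, 7 of 17 passed (41.2% against 11.4% of all genes) and the median was 0.13. Igfbp4, a secreted binding protein that holds IGFs, was the lower gene: it had 584, 617 and 638 CPM in KO embryos, against 674, 678 and 712 CPM in WT embryos, with no overlap. Its log2 fold change was -0.15 (SE 0.0339, edgeR adjusted p = 0.159), and it was called by DESeq2 (adjusted p = 0.00349) and voom (adjusted p = 0.038). Igfbp3, the main carrier of IGFs in adult blood, had 42.8, 52.9 and 73.0 CPM in KO embryos, against 34.7, 40.5 and 44.7 CPM in WT embryos (log2 fold change 0.49, edgeR adjusted p = 0.169, DESeq2 adjusted p = 0.0305). Igfbp2 was at 513 CPM in KO embryo 3, 447 CPM in KO embryo 5 and 209 to 307 CPM in the rest of the KO group, against 169 to 209.7 CPM in WT embryos (log2 fold change 0.75, edgeR adjusted p = 0.173). Irs4, an adaptor downstream of the receptors, had 28.1 ± 8.11 CPM in KO embryos and 19.3 ± 2.42 CPM in WT embryos. The 15 HIF targets tested in the same fit had fitted values with a median of 0.93 on the log2 scale, and their part in the values of the IGF list was not tested.

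**Figure D5:**
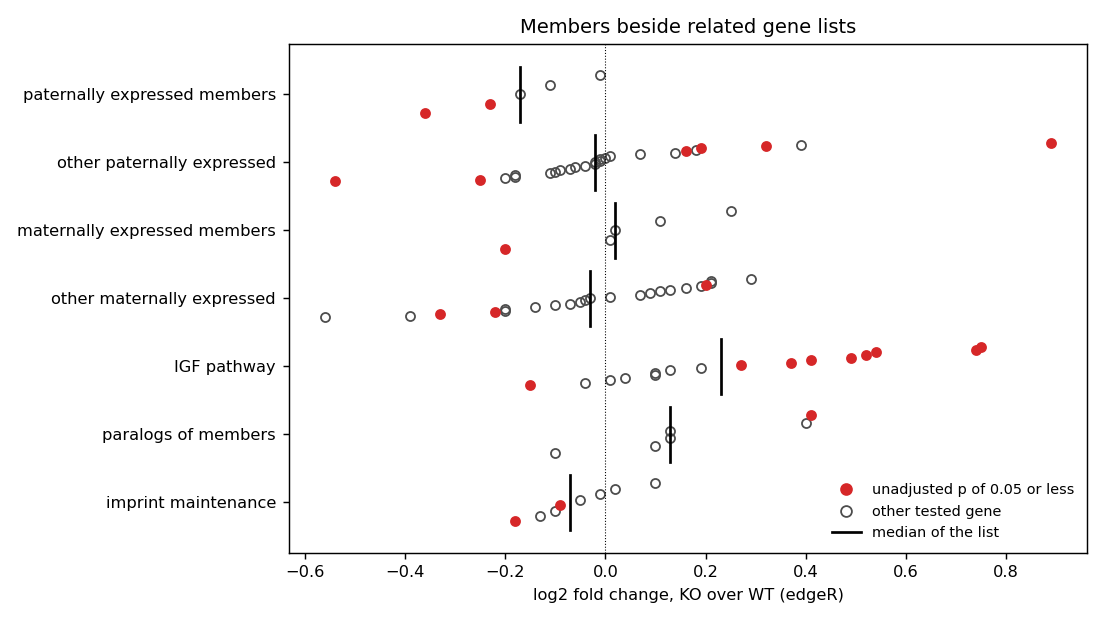
Fitted log2 fold change of KO over WT for every tested gene of each list, with the list's median as a black line and genes with an unadjusted p of 0.05 or less filled in red. The IGF pathway list lies mostly to the right of 0 with a median of 0.23. The 5 paternally expressed members all lie left of 0 (-0.36 to -0.01), and the other imprinted lists hold values on both sides of 0.

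Close relatives of the imprinted genes that are not among the imprinted genes were also read. Of 7 such paralogs 6 passed the filter, 1 had an unadjusted p of 0.05 or less (against 17.9% of all genes), none was called by edgeR, DESeq2 or voom, and the median log2 fold change was 0.13. Plag1, a zinc-finger relative of Plagl1, had 12.7 ± 3.98 CPM in KO embryos and 9.56 ± 1.41 CPM in WT embryos (edgeR adjusted p = 0.244). Cdkn1b, a relative of Cdkn1c, had 34.4 to 49.8 CPM in 5 KO embryos and 86.6 CPM in KO embryo 5, whereas WT embryos had 28.9 to 42.2 CPM. Plagl2 and Grb14 had log2 fold changes of -0.10 and 0.13.

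Of 11 genes that set or keep imprints, 8 passed the filter, 2 had an unadjusted p of 0.05 or less (25.0% against 17.9% of all genes), and none was called by edgeR, DESeq2 or voom, with a median log2 fold change of -0.07. Trim28, the partner of ZFP57 named above, had 946, 1199.7 and 1255 CPM in KO embryos (lowest, median and highest), against 1283, 1323 and 1376 CPM in WT embryos. Its ranges did not overlap, and its log2 fold change was -0.18 (SE 0.0591, edgeR adjusted p = 0.18). Uhrf1, which brings the maintenance methyltransferase to DNA, had 552 ± 18.7 CPM in KO embryos and 590 ± 12.5 CPM in WT embryos (log2 fold change -0.09, edgeR adjusted p = 0.202). Ctcf, the insulator protein that binds between Igf2 and H19, had 209 to 225 CPM in 5 KO embryos and 172 CPM in KO embryo 5, whereas WT embryos had 212 to 230 CPM. Dnmt1, the maintenance methyltransferase, had 391 ± 44.4 CPM in KO embryos and 364 ± 13.8 CPM in WT embryos (edgeR adjusted p = 0.408).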

How the data were processed

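RNA from 12 whole embryos, 6 KO and 6 WT, was sequenced by a service company. The submitters' processing notes name build GRCm38. For the aligner, the counter and its strand setting, the sources used here give nothing. The authors deposited raw read counts per gene and FPKM, which they scaled by gene length and library total, and their own DESeq2 columns of fold changes and p-values, which were not used. The number of per-sample columns left unused was 0. A gene at 0 counts can lie below 3 counts, or 0.137 to 0.18 CPM, and this floor covers counting error only.

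Counts were tested with edgeR 4.0.16 (quasi-likelihood F test, robust, TMM, filterByExpr, group only) in R 4.3.3, with Benjamini-Hochberg adjustment over 14804 genes. Tests were two-sided, and n is 6 per group. Litters are not stated, so p-values reflect only how these embryos vary. Alternatives were DESeq2 1.42.0 (genes with more than 1 count), limma 3.58.1 voom with quality weights, other scaling, no filter, a replicate block and sets of embryos left out. Correlations of H19 with Igf2 and of Meg3 with Dlk1 used log2 CPM without a prior count and 100000 permutations. All other correlations between genes used log2 CPM with a prior count of 2 and were not permuted. Scripts were tested on simulated data. Named list genes were up to 4 per list with the smallest unadjusted p, and the 3 genes most correlated with each imprinted gene. The genes and lists were chosen with earlier results of these data known. Exon overlaps came from GENCODE M21, where 98.3% of 54409 shared genes had the same position.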

Additional observations from a re-analysis of the deposited data

Results flagged for a closer look

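Values of the imprinted genes and of the named genes of the related lists were examined in each group of 6 for an embryo whose gap to its nearest neighbour was above Dixon's 95% critical value, as a share of the group's range. Of 68 such groups, 11 held an embryo like that. Chance gives about 1 in 20 for independent groups, but these groups reuse the same embryos. The named list genes were also chosen by their unadjusted p. The same share over all genes was not computed, so the count does not show an excess over chance. KO embryo 5 accounted for 8 of the 11, and over all genes voom gave it the lowest quality weight (0.0957).

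In KO embryo 5, Igf2r had 349.8 CPM against 125 to 193 CPM in the rest of its group, Grb10 had 2043 CPM against 1587 to 1677 CPM, and Mest had 1424 CPM against 1674 to 1770.5 CPM. Among the genes of the lists, Sfmbt2 was high in the same embryo (13.2 CPM, the rest 3.30 to 6.41 CPM), as were Copg2 (128 CPM, the rest 88.7 to 99.7 CPM) and Cdkn1b (86.6 CPM, the rest 34.4 to 49.8 CPM). Plagl2 (81.7 CPM, the rest 121 to 134 CPM) and Ctcf (172 CPM, the rest 209 to 225 CPM) were low in it.

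The other 3 were in WT embryos. Igfbp4 had 712 CPM in WT embryo 6, where the rest of the WT group had 674 to 688 CPM. The log2 ratio of Meg3 to Dlk1 was -3.15 in WT embryo 1, where the others had -3.99 to -3.77. The log2 ratio of Igf2 to Igf2r was -0.48 in WT embryo 4, where the others had -0.31 to -0.23.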

How the results depend on the processing

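None of the 10 imprinted genes was called under any of 20 alternatives, and the lowest adjusted p was 0.152 (Igf2, without KO embryo 1). With 6 embryos a group the intervals limit what could be seen for Igf2r and Igf2 most. All genes called numbered 3 by edgeR, 313 by DESeq2, 53 by voom and 36 without KO embryos 2, 3 and 5. DESeq2 called 2 of the other paternally expressed genes and 2 genes of the IGF list, and voom called 1 gene of the IGF list. The log2 fold change of Mest turned to 0.0136 with library totals only, 0.0107 by voom and 0.021 without KO embryos 2, 3 and 5. That of H19 turned to -0.0253 by voom, that of Plagl2 to 0.0305 without KO embryos 2, 3 and 5, and that of Peg3 to 0.0533 without KO embryos 2, 3 and 6 and WT embryo 5. The cause of these turns was not tested.

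Leaving out each embryo in turn gave log2 fold changes from -0.0285 to 0.0351 for Mest, -0.126 to 0.0848 for H19, -0.0271 to 0.0638 for Meg3 and -0.00345 to 0.348 for Igf2r. It gave differences of KO minus WT from 0.24 to 0.414 for the log2 ratio of H19 to Igf2, from -0.689 to -0.369 for Igf2 to Igf2r, and from -0.0209 to 0.028 percentage points for the share of counts. The correlation of H19 with Igf2 ran from 0.239 to 0.896 and that of Meg3 with Dlk1 from -0.0838 to 0.438.

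Without KO embryos 2, 3 and 5 the log2 ratio differences were 0.16 for H19 to Igf2 and -0.237 for Igf2 to Igf2r, and the correlations were 0.736 for H19 with Igf2 and -0.612 for Meg3 with Dlk1. Without KO embryos 2, 3 and 6 and WT embryo 5 the medians were -0.047 for the paternally and 0.164 for the maternally expressed genes, the share differed by 0.0606 percentage points, and the correlations of the same pairs were -0.467 and -0.492.

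Samples with the same replicate number did not deviate together (correlations from -0.316 to 0.285, and 2 of 6 KO embryos closest to their own number). With the number as a replicate block, 0 of the 10 genes and 2 genes in all were called, and the log2 fold change of H19 was -0.0289.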
